A study of Mus musculus with 6 samples.

Results

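The transcripts of 10 chemokine genes were followed in interscapular brown adipose tissue (BAT): the CC genes Ccl2, Ccl3, Ccl4, Ccl6, Ccl7, Ccl8 and Ccl9 and the CXC genes Cxcl1, Cxcl10 and Cxcl14. They were chosen by gene symbol and made up 10 of 23282 rows of the count data. Chemokines are small secreted proteins that attract leukocytes by binding G protein-coupled receptors on their surface. They are named CC, CXC or CX3C by the spacing of their first conserved cysteines, and many of their genes lie side by side in the genome. In fat, macrophages, stromal cells, endothelial cells and adipocytes are all known sources, and the CC chemokine CCL2 is known for drawing monocytes from blood into inflamed adipose tissue.

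BAT of 3 wild-type (WT) and 3 Letmd1 KO mice, all male and 5 weeks of age, was compared to ask how its transcripts differ when Letmd1, a gene for a mitochondrial protein, is disrupted. The KO allele is of the knockout-first kind: a lacZ and neomycin resistance cassette sits in an intron, the allele came from a single ES cell clone on a C57BL/6N background, and every cell of the mouse carries it, so that the comparison is not limited to brown adipocytes. RNA was read from the 3′ end of each mRNA (QuantSeq), with between 6669577 and 14574273 counts per mouse. Letmd1 itself had 5658, 6490 and 5266 counts in WT mice and 0, 0 and 1 in Letmd1 KO mice, which matched the genotype labels of all 6. Levels below are CPM, the count expressed per unit of library size after TMM scaling, and because reads came from transcript ends they were not divided by gene length.

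Among the 10 genes, 8 rose in Letmd1 KO BAT, 1 (Cxcl14) did not pass the test and 1 (Ccl4) had too few counts to be tested. The called differences ran from 2.48 for Cxcl10 to 7.06 for Ccl3 as log2 fold changes of Letmd1 KO over WT. The test was the quasi-likelihood test of edgeR, fitted over all 12995 genes that passed its filter, and a gene was called where the p-value, adjusted over those genes by the Benjamini-Hochberg method, was under 0.05. By that rule 46.0% of all tested genes were called, 23.7% as higher and 22.3% as lower. Of the 10 genes, 6 passed the filter on low counts through the Letmd1 KO mice alone, so that they could hardly have been called in the other direction. Ccl6, Ccl9 and Cxcl14 were above the filter level in all 6 mice.

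The 10 genes lie in few places. In the GENCODE annotation of GRCm38 (the same build as mm10, which the submitters' processing notes name), Ccl2 (chr11:82035571-82037453), Ccl7 (chr11:82045712-82047525) and Ccl8 (chr11:82115185-82116799) are on the plus strand with Ccl11 and Ccl12 between them, in a span of 81.2 kb. A second group begins 1409.0 kb further on, spans 138.9 kb, and holds Ccl5, Ccl9 (chr11:83572919-83578636), Ccl6 (chr11:83587882-83593087), Ccl3 (chr11:83647844-83649355) and, on the plus strand where the other 4 are on the minus strand, Ccl4 (chr11:83662584-83664683). Cxcl1 (chr5:90891241-90893115, plus strand) and Cxcl10 (chr5:92346638-92348889, minus strand) are on chromosome 5, and Cxcl14 (chr13:56288643-56296551, minus strand) stands alone. Each is a protein-coding gene of 3 or 4 exons. No stretch of 50 bases from the last 500 bases of their transcripts was found in a transcript of another gene. Cxcl10 lies within Art3, a gene of the opposite strand, and without a statement that strand was used in counting the reads of such a pair cannot be told apart. Art3 had 548, 617 and 391 counts in WT mice and 286, 266 and 616 in Letmd1 KO mice. Ccl6 overlaps E230016K23Rik on the other strand, which had between 0 and 8 counts per mouse, and Ccl2 overlaps Gm17268.

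The inducible chemokine promoters are a textbook example of control by NF-kB, the interferon regulatory factors and AP-1. RefSeq promoter sequences of GRCm38.p6 were matched for 7 of the 10 genes, and 4 are shown because they cover each of the 3 motifs: Cxcl10, Cxcl1 and Ccl9, which rose, and Cxcl14, which was not called. Each run reads 5′ to 3′ on the gene's own strand from base -220 to base -21 before the RefSeq start, with motif matches in capitals. The positions are chr5:92348910-92349109 (minus strand) for Cxcl10, chr5:90891025-90891224 (plus) for Cxcl1, chr11:83578657-83578856 (minus) for Ccl9 and chr13:56296572-56296771 (minus) for Cxcl14.
Cxcl10: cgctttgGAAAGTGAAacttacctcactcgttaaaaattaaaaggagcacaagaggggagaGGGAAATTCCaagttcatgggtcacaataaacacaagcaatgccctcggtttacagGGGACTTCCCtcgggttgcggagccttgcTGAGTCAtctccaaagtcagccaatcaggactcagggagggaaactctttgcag
Cxcl1: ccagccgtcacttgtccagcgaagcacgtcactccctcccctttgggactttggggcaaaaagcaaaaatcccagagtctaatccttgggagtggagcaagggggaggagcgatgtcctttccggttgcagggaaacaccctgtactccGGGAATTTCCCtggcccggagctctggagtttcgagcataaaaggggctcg
Ccl9: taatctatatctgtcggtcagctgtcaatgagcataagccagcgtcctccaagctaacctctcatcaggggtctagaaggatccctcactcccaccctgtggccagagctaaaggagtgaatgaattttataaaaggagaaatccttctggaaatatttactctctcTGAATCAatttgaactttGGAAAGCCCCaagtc
Cxcl14: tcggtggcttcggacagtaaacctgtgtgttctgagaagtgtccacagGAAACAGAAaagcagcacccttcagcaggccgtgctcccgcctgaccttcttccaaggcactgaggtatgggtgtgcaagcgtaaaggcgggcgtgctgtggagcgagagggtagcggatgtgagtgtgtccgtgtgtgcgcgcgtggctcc
In Cxcl10 the capitals mark, in order, 1 interferon regulatory factor match (GAAAGTGAA), NF-kB matches GGGAAATTCC and GGGACTTCCC, and 1 AP-1 match (TGAGTCA). In Cxcl1 they mark 2 overlapping NF-kB matches, 1 on each strand, that share most of their bases. In Ccl9 they mark the AP-1 match TGAATCA and then the NF-kB match GGAAAGCCCC. In Cxcl14 they mark the interferon regulatory factor match GAAACAGAA.

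Over the 250 bases before the start and on both strands, the NF-kB motif was matched in 3 of the 7 promoters (Ccl9, Cxcl1 and Cxcl10). It was matched in 3.90% of the 32851 promoters searched, which did not cover every chromosome. The interferon regulatory factor motif GAAANNGAA was matched in 3 of 7 (Ccl3, Cxcl10 and Cxcl14) and in 7.13% of those searched. The AP-1 motif TGANTCA was matched in 2 of 7 (Ccl9 and Cxcl10) and in 6.75% of those searched. Ccl6 and Ccl8 held none of these letters in this window. Each match is a description of letters and says nothing of whether a factor was bound.

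Ccl2 and Ccl7 encode ligands of CCR2, the receptor that brings classical monocytes into tissue. Ccl2 had 3, 2 and 0 counts in WT mice and 120, 71 and 149 in Letmd1 KO mice. All WT mice were thus at or under 3 counts, and every Letmd1 KO mouse was far above them. The level rose from 0.178 ± 0.164 CPM (SD, n = 3) to 10.4 ± 2.39 CPM (n = 3), a log2 fold change of 5.70 (SE 0.51, adjusted p = 3.56e-05 from edgeR). Since WT counts were so few, the ratio of the summed, scaled counts was also taken, and it was 53.3 with a 95% interval from 22.6 to 165, which covers counting error only. Without WT mouse 1 the log2 fold change of Ccl2 was 6.34.

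Ccl7, the next gene along the chromosome, had 3, 2 and 3 counts in WT mice and 66, 55 and 108 in Letmd1 KO mice. The Letmd1 KO mice were close to each other, at 7.25, 7.28 and 6.35 CPM, and all lay far above the WT mice, which were between 0.212 and 0.391 CPM. The log2 fold change of Ccl7 was 4.46 (SE 0.38, adjusted p = 2.83e-05 from edgeR), and its ratio of summed counts was 22.4 with a counting interval from 11.2 to 52.6.

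Ccl8 is at the far end of the same group and its mouse protein is known as a ligand of CCR8. It had 14, 6 and 35 counts in WT mice and 184, 376 and 302 in Letmd1 KO mice. On the CPM scale this was 1.51, 0.636 and 4.56 against 20.2, 49.8 and 17.8, so that the groups did not overlap but the mice of each genotype differed widely. Its mean was 2.24 ± 2.06 CPM in WT BAT and 29.2 ± 17.8 CPM in Letmd1 KO BAT. The log2 fold change was 3.75 (SE 0.61, adjusted p = 0.000979 from edgeR), and it was 4.72 without WT mouse 3 and 3.13 without Letmd1 KO mouse 2.

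CCL6 and CCL9 are CC chemokines of rodents that bind CCR1 and are made by macrophages and other myeloid cells. Of the raised genes among the 10, theirs were the most highly counted. Ccl6 had 231, 166 and 179 counts in WT mice and 1950, 1749 and 3154 in Letmd1 KO mice. Its level rose from 21.9 ± 3.85 CPM to 210.4 ± 23.2 CPM, a log2 fold change of 3.26 (SE 0.16, adjusted p = 2.15e-06 from edgeR). Ccl9 had 55, 54 and 56 counts in WT mice and 638, 540 and 905 in Letmd1 KO mice. Its level rose from 6.32 ± 0.857 CPM to 64.9 ± 10.2 CPM, a log2 fold change of 3.36 (SE 0.18, adjusted p = 3.31e-06 from edgeR). These neighbouring genes rose by close to the same factor, 9.59-fold for Ccl6 and 10.3-fold for Ccl9, with the narrowest errors among the 10 genes.

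Ccl3 and Ccl4, at the end of that group, encode macrophage inflammatory proteins, CC chemokines that activated macrophages are known to secrete. Ccl3 had no counts in any WT mouse and 21, 13 and 18 in Letmd1 KO mice. Against a floor of 3 counts per library, the limit that a count of 0 allows, Ccl3 was at least 4.93-fold higher in Letmd1 KO BAT. The fitted log2 fold change of 7.06 (SE 1.13, adjusted p = 0.00192 from edgeR) depends on how counts of 0 are handled and is no bound. Ccl4 had 1 count in each WT mouse and 2, 17 and 17 in Letmd1 KO mice. The groups did not overlap on the CPM scale, but Letmd1 KO mouse 1, at 0.220 CPM, stood near the WT mice, which were between 0.106 and 0.130 CPM. Only 2 Letmd1 KO mice were above the filter level, so Ccl4 was not tested. The ratio of its summed counts was 9.40 with a counting interval from 2.97 to 47.7. With no filter its log2 fold change was 3.17 (adjusted p = 0.0274 from edgeR), and without Letmd1 KO mouse 1 it was 3.64 (adjusted p = 0.00948). Without 1 WT mouse, where it was also tested, the adjusted p was between 0.0532 and 0.0759.

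Cxcl1 encodes a ligand of CXCR2, the main chemokine receptor of neutrophils. It had 3, 1 and 0 counts in WT mice and 22, 38 and 36 in Letmd1 KO mice. Every Letmd1 KO mouse, between 2.12 and 5.03 CPM, lay above the WT mice, of which the highest had 0.323 CPM. The log2 fold change of Cxcl1 was 4.26 (SE 0.75, adjusted p = 0.00150 from edgeR), and 5.47 without WT mouse 1. Its ratio of summed counts was 18.8 with a counting interval from 7.11 to 70.4.

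Cxcl10 is induced by interferons and its protein attracts activated T cells and NK cells through CXCR3. It had 6, 7 and 10 counts in WT mice and 62, 44 and 43 in Letmd1 KO mice. In CPM the Letmd1 KO mice had 6.81, 5.82 and 2.53, and the WT mice 0.647, 0.742 and 1.30. The groups did not overlap, and the log2 fold change of 2.48 (SE 0.50, adjusted p = 0.00341 from edgeR) was the smallest of the 8 called.

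Cxcl14, a chemokine that brown adipocytes are known to secrete, had 81, 113 and 57 counts in WT mice and 54, 79 and 156 in Letmd1 KO mice. In CPM the WT mice had 8.73, 12.0 and 7.43, and the Letmd1 KO mice 5.93, 10.5 and 9.17, so that the groups overlapped. The log2 fold change was -0.14 (SE 0.28, 95% interval from -0.76 to 0.48, adjusted p = 0.700 from edgeR). No difference was detected for Cxcl14 at this depth and number of mice, and a change of up to the bounds of that interval in either direction could have been missed. The sign of its difference also turned with the scaling, to 0.27 with library size alone, and to 0.05 without WT mouse 2 or without Letmd1 KO mouse 1.

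**Figure D1:**
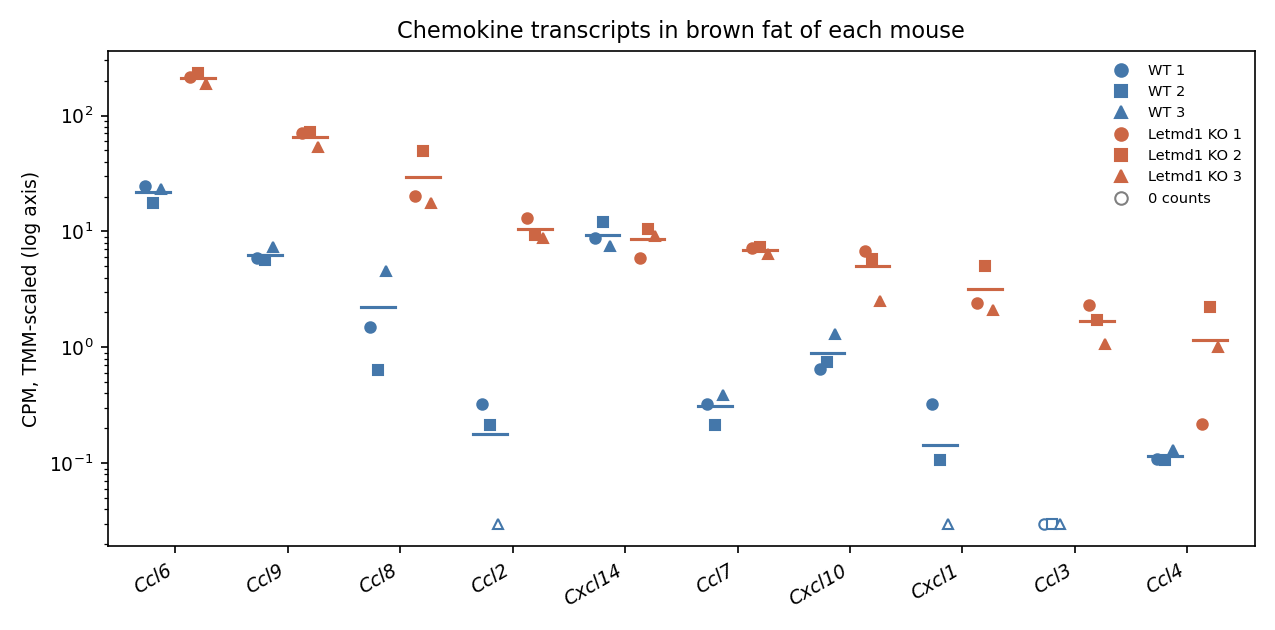
CPM (TMM-scaled, log axis) of the 10 chemokine genes in each of 3 WT (blue) and 3 Letmd1 KO (orange) mice, with the mouse number given by the marker shape, a horizontal bar at the group mean and open symbols near the bottom for mice with 0 counts. The genotypes are apart for 9 genes and overlap for Cxcl14, which had 9.38 ± 2.34 CPM (SD, n = 3) in WT and 8.52 ± 2.33 CPM in Letmd1 KO BAT.

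Over all tested genes, the values of the 3 Letmd1 KO mice lay above those of the 3 WT mice for 30.1%. This was so for 8 of the 9 tested chemokine genes, and also for Ccl4, which was not tested. The median log2 fold change of the 9 tested genes was 3.75, or 3.36 with Ccl3 set at its bound, and the median over all tested genes was 0.03. These counts carry the limit given above, that 6 of the genes were tested only because they were high in Letmd1 KO mice.

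The order of levels differed between the genotypes. In WT BAT, Ccl6 had the highest level at 21.9 CPM, then Cxcl14 at 9.38, Ccl9 at 6.32 and Ccl8 at 2.24 CPM. The ranges of Ccl6, Cxcl14, Ccl9 and Ccl8 did not overlap between neighbours in that order, while Ccl8 overlapped Cxcl10, and Ccl7, Ccl2 and Cxcl1 each overlapped the next. Ccl4 was apart from Ccl3, which had no counts. In Letmd1 KO BAT the order began with Ccl6, Ccl9 and Ccl8, which were apart from each other. Ccl2 came next at 10.4 CPM, above Cxcl14 at 8.52 CPM, and from Ccl2 down to Ccl4 every gene overlapped its neighbour in the order. Cxcl14 was thus the second most highly counted of the 10 genes in WT BAT and the fifth in Letmd1 KO BAT.

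The Letmd1 KO mice were not alike. Of the 9 genes other than Cxcl14, Letmd1 KO mouse 3 had the lowest CPM among the KO mice for 8, and Letmd1 KO mouse 2 the highest for 6. The ratio of the highest to the lowest Letmd1 KO mouse was 1.15 for Ccl7 and 1.25 for Ccl6, but 2.69 for Cxcl10, 2.80 for Ccl8 and 10.2 for Ccl4. Letmd1 KO mouse 3 also had the lowest summed macrophage markers among the KO mice, 1495 CPM, and the highest summed skeletal muscle markers, 768 CPM, against 187 and 257 CPM in the other KO mice. Skeletal muscle markers were at 258 CPM in WT mouse 2 and between 2.37 and 2.48 CPM in the other WT mice. With WT mouse 2 and Letmd1 KO mouse 3 both left out, the 8 called genes were called again, with log2 fold changes between 2.69 for Cxcl10 and 7.09 for Ccl3. Summed skeletal muscle markers of the mice left in were 2.37 and 2.48 CPM in WT and 257 and 187 CPM in Letmd1 KO. Muscle markers were thus still apart by genotype, so leaving these mice out cannot show their part, which was not tested.

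Markers of some leukocytes, though not of all, were higher in Letmd1 KO BAT as the chemokines were. Of 13 macrophage markers, 12 were tested and all 12 were higher in Letmd1 KO BAT, against 23.7% of all tested genes. The 12 included Cd68, a lysosomal glycoprotein of macrophages, at 6.63 against 104 CPM, and Lgals3, the gene for galectin-3, at 8.38 against 562 CPM. Those 2 genes had the largest fold changes of the 12. The smallest was that of Cd163, a scavenger receptor, at 13.5 against 21.1 CPM. Mertk, the marker that was not tested, had 0.869 CPM in WT and 0.392 CPM in Letmd1 KO BAT. The summed level of the 13 markers was between 196 and 267 CPM in WT mice and between 1495 and 2651 CPM in Letmd1 KO mice, 8.10-fold higher in the mean. In bulk tissue, more macrophages and more RNA of these genes per macrophage cannot be told apart. Of the summed counts of the 13 markers, Lgals3 held 105 of 2410, 75 of 1850 and 45 of 2044 in WT mice. In Letmd1 KO mice it held 5378 of 15550, 5943 of 20030 and 5250 of 25418. The fold of the sum, and chemokine counts taken relative to the sum, thus depend in part on this gene. Summed monocyte markers were between 33.3 and 50.7 CPM in WT and between 110 and 149 CPM in Letmd1 KO mice. Plac8 and F13a1, 2 of 3 tested markers, were called as higher, against 23.7% of all tested genes. Plac8, and Fcgr1 of the macrophage markers, passed the filter through the Letmd1 KO mice, so they could hardly have been called as lower. The other tested monocyte marker was Ly6c2, a gene of classical monocytes. It had 12.1 CPM in WT and 12.6 CPM in Letmd1 KO BAT (log2 fold change 0.04, adjusted p = 0.899 from edgeR).

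Markers of neutrophils, T cells and NK cells, which the ligands of CXCR2 and CXCR3 attract, were also summed. The 3 tested neutrophil markers were not called (S100a8 at an adjusted p of 0.962 and S100a9 at 0.898 from edgeR), and the summed level was between 1.59 and 48.9 CPM in WT mice and between 1.47 and 49.2 CPM in Letmd1 KO mice. Summed NK cell markers were between 3.60 and 5.74 CPM in WT and between 11.4 and 16.3 CPM in Letmd1 KO mice. Of 4 tested, 3 were called as higher, against 23.7% of all tested genes. Those 3, Klrb1c, Klrd1 and Nkg7, passed the filter through the Letmd1 KO mice, so they could hardly have been called as lower. Summed T cell markers overlapped between the genotypes, from 2.26 to 5.74 CPM in WT and from 3.74 to 9.26 CPM in Letmd1 KO mice. Of 2 tested, Cd4 was called as higher, and Cd3d was not called (log2 fold change -0.19, adjusted p = 0.810 from edgeR). Cd4 had 8, 3 and 14 counts in WT mice and 15, 36 and 55 in Letmd1 KO mice, and its CPM overlapped between genotypes. Cd4 also passed the filter through the Letmd1 KO mice, so it could hardly have been called as lower. The shares over all tested genes were 23.7% higher and 22.3% lower. Summed B cell markers were at most 2.78 CPM in any mouse, and none of them passed the filter.

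Among tissue cells, all 4 mast cell markers and all 7 fibroblast markers were higher in Letmd1 KO BAT. The shares over all tested genes were 23.7% higher and 22.3% lower. Mcpt4, a mast cell marker, passed the filter through the Letmd1 KO mice, so it could hardly have been called as lower. Elovl3, a brown adipocyte marker, passed it through the WT mice, so it could hardly have been called as higher. Summed mast cell markers were between 9.97 and 20.3 CPM in WT and between 73.3 and 81.0 CPM in Letmd1 KO mice. Summed fibroblast markers were between 1382 and 1917 CPM in WT and between 3896 and 6697 CPM in Letmd1 KO mice. Of 8 brown adipocyte markers 7 were lower. The sum of the 8 was between 39282 and 44762 CPM in WT and between 11792 and 15695 CPM in Letmd1 KO mice. Fabp4 made up most of that sum, at a mean of 28020 CPM in WT and 10462 CPM in Letmd1 KO BAT. Ucp1 was at 6328 against 382 CPM and Elovl3 at 30.8 against 1.34 CPM, so the sum does not give the level of each marker. Of 5 endothelial markers 3 were lower, with sums between 406 and 520 CPM in WT and between 268 and 344 CPM in Letmd1 KO mice. The part of these shifts in the chemokine changes was not tested.

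**Figure D2:**
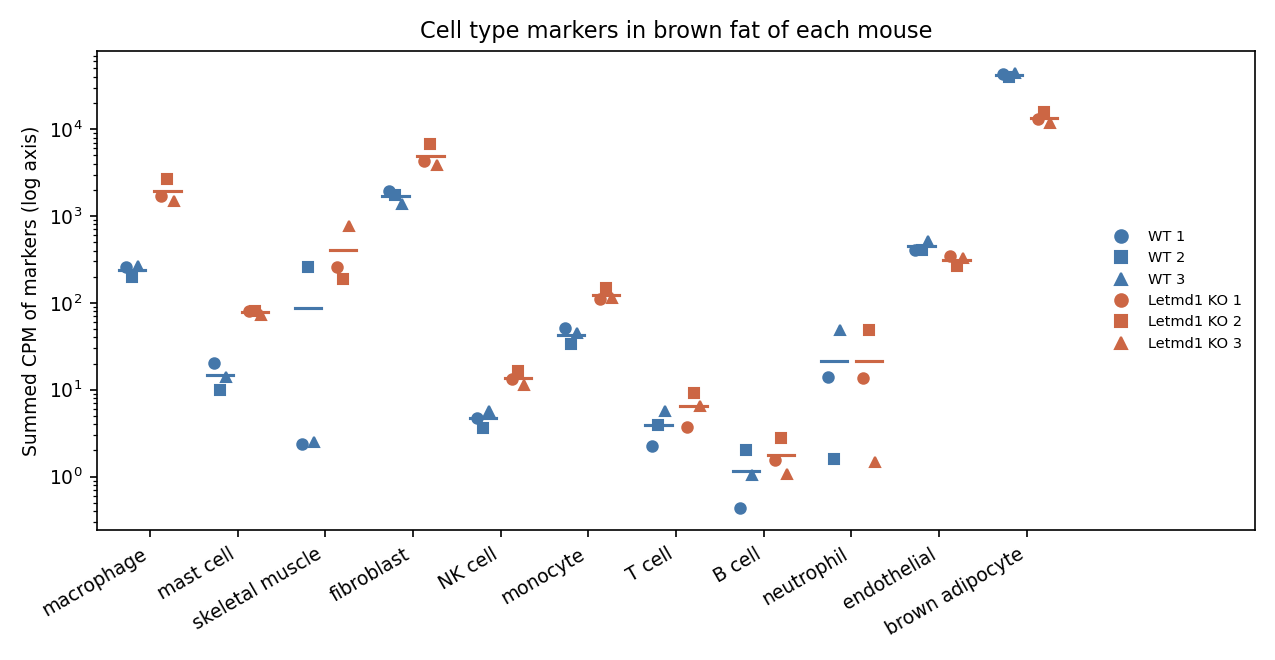
Summed CPM (log axis) of the markers of each cell type in each mouse, WT in blue and Letmd1 KO in orange, with marker shape for the mouse number and a bar at the group mean. Macrophage, mast cell, fibroblast, NK cell and monocyte sums are higher in all 3 Letmd1 KO mice, brown adipocyte and endothelial sums are lower, and neutrophil sums span 1.47 to 49.2 CPM without separation by genotype.

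Dividing each chemokine count by the summed macrophage marker counts of the same mouse gives a value that does not depend on library scaling. Relative to 1000 macrophage marker counts, Ccl2 had 1.24, 1.08 and 0 counts in WT mice and 7.72, 3.54 and 5.86 in Letmd1 KO mice, 7.36-fold more in the mean. Ccl7 had 1.24, 1.08 and 1.47 against 4.24, 2.75 and 4.25, a 2.96-fold difference. For both genes every Letmd1 KO mouse was above every WT mouse relative to the summed markers. The single marker Lgals3, with a log2 fold change of 6.05, rose more than either of them. Cxcl1, at a mean of 0.595 against 1.58, and Ccl3, at 0 against 0.903, were also higher in all 3 Letmd1 KO mice than in any WT mouse, although on few counts.

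The other raised genes overlapped on this scale. Ccl6 had 95.9, 89.7 and 87.6 counts per 1000 macrophage marker counts in WT mice and 125, 87.3 and 124 in Letmd1 KO mice, a ratio of 1.23. Ccl9 had a ratio of 1.30, with 22.8, 29.2 and 27.4 against 41.0, 27.0 and 35.6. In both, Letmd1 KO mouse 2, which had the highest summed macrophage markers, fell within or below the WT range. Ccl8 had means of 8.73 and 14.2, and Ccl4 of 0.482 and 0.549. Cxcl10 had a lower mean in Letmd1 KO BAT, 2.63 against 3.72, again with overlap. Cxcl14 had means of 40.9 in WT and 4.52 in Letmd1 KO BAT, with every Letmd1 KO mouse below every WT mouse.

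On this scale 1.02% of all tested genes had every Letmd1 KO mouse above every WT mouse and 91.7% had every one below, since the markers themselves rose. With 3 mice in each group an exact permutation test could not give a two-sided p under 0.1, so the ratios were not tested. A second denominator was C1qa, C1qb and C1qc, the genes for the complement component C1q made by resident macrophages. With it, Ccl6 and Ccl9 were also higher in every Letmd1 KO mouse, at 1.70 and 1.81 times the WT mean. Cxcl10 had a ratio of 1.01. The share of all tested genes with every Letmd1 KO mouse above every WT mouse was not taken with this denominator, so these separations cannot be set against it.

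**Figure D3:**
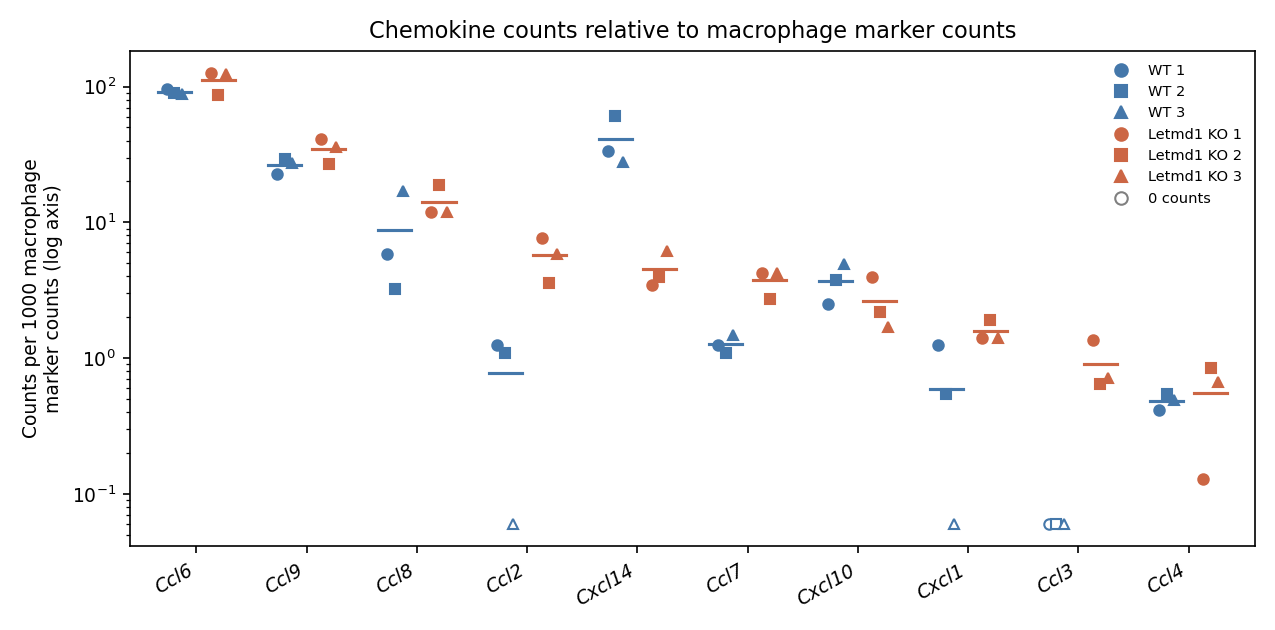
Counts of each chemokine gene per 1000 counts of macrophage markers (log axis) in each mouse, WT in blue and Letmd1 KO in orange, with marker shape for the mouse number, bars at the group means and open symbols for 0 counts. Ccl2, Ccl7, Cxcl1 and Ccl3 lie higher in all 3 Letmd1 KO mice, Ccl6, Ccl9, Ccl8, Cxcl10 and Ccl4 overlap, and Cxcl14 lies lower.

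Among the other chemokine ligands, 31 symbols in 35 rows, 19 rows were tested and 10 were higher in Letmd1 KO BAT, with 0 lower. Over all tested genes the shares were 23.7% higher and 22.3% lower. Ccl12, Ccl17, Ccl22 and Cxcl2 passed the filter through the Letmd1 KO mice alone, so they could hardly have been called as lower. After quantile normalization with limma 3 of the ligands were lower, and without WT mouse 2 1 was lower. The median log2 fold change of the 19 rows was 0.80. Cx3cl1, whose membrane-bound protein fractalkine binds CX3CR1 on monocytes and macrophages, had 13, 14 and 32 counts in WT mice and 509, 277 and 959 in Letmd1 KO mice, and a log2 fold change of 4.44 (SE 0.36, adjusted p = 2.25e-05 from edgeR), or 5.09 without WT mouse 3. Pf4, a CXC chemokine of platelets that macrophages also express, went from 28.0 ± 4.54 to 169 ± 6.12 CPM (log2 fold change 2.60, adjusted p = 3.07e-06). Ppbp, another platelet chemokine gene, went the other way and was not called, at 3.05 against 1.38 CPM (log2 fold change -1.14, adjusted p = 0.0502). The called ligands with more than a few WT counts also included Cxcl16, the ligand of CXCR6 (log2 fold change 2.25), Ccl24, an eotaxin (1.84), Ccl5, a chemokine of T cells and other leukocytes (1.55), Ccl11, the eotaxin gene between Ccl7 and Ccl12 (0.80), and Cxcl9, the neighbour of Cxcl10 (0.50).

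Ccl17 and Ccl22, which encode the ligands of CCR4 and lie on either side of Cx3cl1 on chromosome 8, and Cxcl2, the neighbour of Cxcl1, had almost no counts in WT BAT. Ccl17 had 0, 0 and 1 against 18, 11 and 32 counts, a ratio of summed counts of 47.8 with a counting interval from 8.26 to 1919. Ccl22 had 0, 2 and 0 against 26, 10 and 49, a ratio of 33.3 (8.94 to 279). Cxcl2 had 2, 0 and 0 against 10, 17 and 28, a ratio of 21.6 (5.69 to 182). All 3 were called, and their fitted log2 fold changes, 5.15, 4.78 and 4.24, moved to 7.23 without WT mouse 3, 7.60 without WT mouse 2 and 7.08 without WT mouse 1, each the mouse that held the WT counts.

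Calls for the smallest changes rested on single mice. Ccl11 was not called without WT mouse 2, WT mouse 3 or Letmd1 KO mouse 2 (adjusted p between 0.0589 and 0.0625 from edgeR), and Cxcl9 was not called without WT mouse 1, WT mouse 2, Letmd1 KO mouse 1 or Letmd1 KO mouse 2 (adjusted p between 0.0557 and 0.0855). Ccl12, a mouse ligand of CCR2 that lies between Ccl11 and Ccl8, was not called, with 0, 5 and 8 counts in WT mice and 11, 26 and 27 in Letmd1 KO mice (log2 fold change 1.98, adjusted p = 0.0716), and was called without WT mouse 3 (adjusted p = 0.0372). Ccl21a, Ccl21b, Ccl21c, Ccl25, Ccl27a, Ccl27b and Cxcl12 were the other tested ligands that were not called. Ccl21a, Ccl21b and Ccl21c are near-identical copies among which reads could be split, so their single values are uncertain. Of the ligands that could not be tested, Ccl1, Ccl19, Ccl28, Cxcl11, Cxcl13, Cxcl17 and Xcl1 had some counts, and Ccl20, Ccl26, Cxcl3, Cxcl5 and Cxcl15 had none in any mouse.

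By place in the genome, the first chromosome 11 group had 4 of 5 tested genes higher, the second 4 of 4, the group on chromosome 5 around Cxcl1 3 of 4, the Cxcl9 and Cxcl10 group 2 of 2 and the chromosome 8 group 3 of 3. With all 6 mice these groups held no gene called as lower by edgeR. Over all tested genes, 23.7% were called as higher and 22.3% as lower. Ccl12, Ccl17, Ccl22, Cxcl2 and 6 of the 10 chemokines passed the filter through the Letmd1 KO mice alone. Those genes could hardly have been called as lower. Ppbp, in the Cxcl1 group, was called as lower by edgeR without WT mouse 2 (log2 fold change -1.43, adjusted p = 0.0276) and after quantile normalization with limma (adjusted p = 0.00703).

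Of 23 chemokine receptor genes 15 were tested, and 8 were higher and 1 was lower in Letmd1 KO BAT, or 7 and 4 after quantile normalization with limma. The shares over all tested genes were 23.7% higher and 22.3% lower by edgeR. Ccr1, Ccr7, Cxcr6 and Xcr1 passed the filter through the Letmd1 KO mice alone, so they could hardly have been called as lower. Ccr2, the receptor for CCL2 and CCL7, had 28, 28 and 42 counts in WT mice and 249, 226 and 530 in Letmd1 KO mice, so that its log2 fold change was 2.96 (SE 0.24, adjusted p = 2.12e-05 from edgeR). Ccr1, a receptor for CCL3, CCL6 and CCL9, had 0, 1 and 0 against 21, 32 and 41 counts, a ratio of summed counts of 73.7 with a counting interval from 12.9 to 2940, and its fitted log2 fold change was 5.88 (adjusted p = 0.000353) or 7.89 without WT mouse 2.

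Cx3cr1, the receptor for the product of Cx3cl1, rose from 3.19 ± 1.76 to 17.1 ± 3.43 CPM (log2 fold change 2.45). Ccr7, which guides dendritic cells to lymph nodes, had 3, 5 and 0 against 25, 18 and 80 counts (log2 fold change 3.43, and 4.15 without WT mouse 2). Xcr1, a receptor of cross-presenting dendritic cells, rose by 2.27 on the log2 scale and Cxcr4, the receptor for CXCL12, by 1.88. Cxcr6 was called (log2 fold change 1.78, adjusted p = 0.0397 from edgeR), but the call was lost on leaving out any 1 mouse other than WT mouse 2 (adjusted p between 0.0695 and 0.111), and the log2 fold change was 2.40 without WT mouse 2.

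The receptor that fell was Ackr3, an atypical receptor that takes up CXCL12 without signalling through G proteins. It had 779, 401 and 596 counts in WT mice and 118, 112 and 245 in Letmd1 KO mice, 68.1 ± 22.4 CPM against 14.1 ± 0.974 CPM. The log2 fold change of Ackr3 was -2.27 (SE 0.24, adjusted p = 9.02e-05 from edgeR). Cxcr3, the receptor for CXCL10, was not called, with 12, 9 and 7 counts in WT mice and 21, 16 and 19 in Letmd1 KO mice (log2 fold change 0.76, 95% interval from -0.28 to 1.80). Ccr9, Ccr10, Ccrl2, Cxcr5 and Ackr1 were tested and not called either. Cxcr2, the receptor for CXCL1, had 4, 1 and 5 against 9, 5 and 6 counts and was too low to be tested, as were Ccr3, Ccr4, Ccr6, Cxcr1, Ackr2 and Ackr4, and Ccr8, the receptor for mouse CCL8, had no counts in any mouse.

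**Figure D4:**
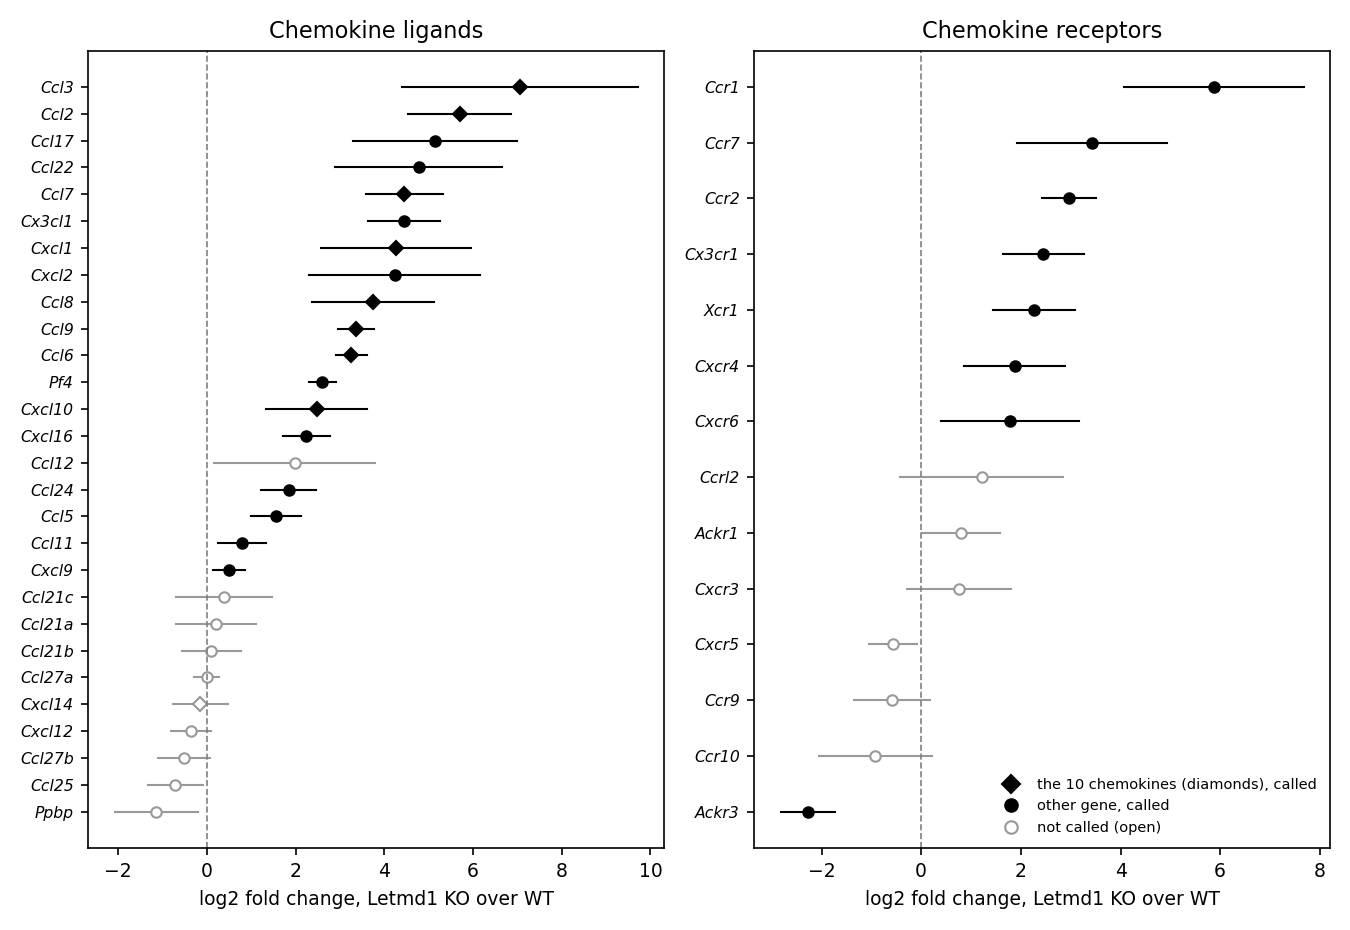
Fitted log2 fold change of Letmd1 KO over WT with its 95% interval (edgeR) for every tested chemokine ligand (left) and the tested receptors named in the text (right), with diamonds for the 10 chemokines described above, circles for other genes, filled black symbols for genes called at an adjusted p under 0.05 and open grey symbols for genes not called. Called ligands all lie to the right of 0, and Ackr3, at -2.27, is the only called receptor to the left.

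Of 16 cytokine genes of inflamed tissue, 4 were tested and all 4 were higher in Letmd1 KO BAT. Over all tested genes 23.7% were called as higher. Il12b, Il18 and Il33 passed the filter on low counts through the Letmd1 KO mice, so they could hardly have been called as lower. Csf1, the growth factor that macrophages depend on, had 105, 88 and 82 counts in WT mice and 541, 374 and 1259 in Letmd1 KO mice (log2 fold change 2.55, SE 0.18, adjusted p = 1.24e-05 from edgeR). Il33, an alarmin of stromal cells, rose by 2.73 on the log2 scale (3.37 without WT mouse 2), Il18, an inflammasome cytokine, by 2.49, and Il12b, a subunit of interleukin-12, by 2.60 (3.87 without WT mouse 1). The call for Il12b was lost after quantile normalization with limma (adjusted p = 0.0668). Tnf had no counts in WT mice and 12, 7 and 12 in Letmd1 KO mice, at least 2.86-fold higher against the floor of 3 counts, and was not tested. Il6 had at most 2 counts in any mouse and Ifng at most 1. Tgfb1, which most tissues express, also had at most 1 count in any mouse, so a count near 0 in these data need not mean that a transcript was absent.

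The genes whose pattern over the 6 mice was nearest to a chemokine's were found for the 3 chemokines with the most counts, by the root mean square difference of log2 CPM centred on each gene's mean. For Ccl6 they were Cd52, a leukocyte surface glycoprotein (0.067), Ptpn6, the phosphatase SHP-1 of blood cells (0.14), and Ccl9 (0.15). For Ccl9 they were Mki67, the marker of cycling cells (0.050), Sirpa, a receptor of myeloid cells (0.10), and Napsa, an aspartic protease (0.12). Mki67 had 11 counts in each WT mouse and 151, 115 and 202 in Letmd1 KO mice. For Ccl8 they were the myeloid lectin Clec4d (0.25), the metalloprotease Adam8 (0.33) and the lectin Clec12a (0.46), which shared its wide spread among mice of the same genotype. The measure was taken over 6 mice in 2 groups and says nothing of shared function or control.

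The calls for the 8 raised chemokines were made again under every alternative in which the gene was tested, but the size of the change depended on the processing for the genes with few WT counts. After quantile normalization with limma the log2 fold change was 1.95 for Ccl3, 2.32 for Cxcl1, 3.0 for Ccl7, 4.03 for Ccl2 and 1.59 for Cxcl10. It stayed between 3.10 and 3.68 for Ccl6 and between 3.20 and 3.78 for Ccl9 over all alternatives. Scaling by library size alone moved the median log2 fold change of all tested genes from 0.03 to 0.45 and the share of calls that were higher from 51.6% to 81.2%, and the 8 genes were higher relative to that shift too.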

How the data were processed

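RNA of interscapular BAT of 3 WT and 3 Letmd1 KO mice was sequenced with QuantSeq 3′ libraries. The authors aligned the reads with Bowtie2, counted unique and multiple alignments with bedtools and deposited raw counts per gene for each mouse. The submitters' processing notes name mm10. Annotation, versions and use of strand in counting are not given in the sources used here.

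The test was run in edgeR 4.0.16 under R 4.3.3 (TMM scaling, default filter asking for 10 counts and a total of 15, quasi-likelihood test, Benjamini-Hochberg adjustment, threshold 0.05), and alternatives used limma 3.58.1 and DESeq2 1.42.0. The filter kept 12995 of 23282 rows, and 5588 rows were at 0 in every mouse. A floor of 3 counts was between 0.176 and 0.397 CPM, and intervals and floors cover counting error only. Mice were grouped by labelled genotype. The labels do not say whether each library is a separate litter or batch, and p-values measure the spread between these mice. The steps were tested on simulated data.

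The chemokines and gene lists were chosen with earlier results of these data known. Named are all 10 chemokines, the other ligands and receptors, Letmd1 and, for the 3 chemokines with the most counts, the 3 nearest genes with a mean of at least 20 counts. The called cytokines, Tnf, Il6, Ifng, Tgfb1 and the single cell type markers were chosen after their values were seen. Ly6g, Trac and Trbc2 of the marker lists were not analysed here. 1 receptor gene counted in the list totals is not reported here. Alternatives were other scaling, filters and tools, the replicate number as a block, a 2-fold change asked for, another macrophage denominator and leaving out mice.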

Additional observations from a re-analysis of the deposited data

How the results depend on the processing

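Of 113 values of single chemokines under an alternative, 110 kept their direction and side of the threshold. The other 3 were Cxcl14, at 0.27 with library size alone, 0.054 without WT mouse 2 and 0.055 without Letmd1 KO mouse 1, none of them called, and the cause was not tested. Without 1 mouse at a time Cxcl14 was between -0.30 and 0.055. A mean of at least 50 counts left 5 of the 10 chemokines tested and 4 called, with 6 called ligands, 5 called receptors and 1 called cytokine, since fewer genes were tested. Asking for a 2-fold change left 3048 genes called in all, and leaving out both WT mouse 2 and Letmd1 KO mouse 3 left 3889, with fewer samples.

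Leaving out 1 mouse at a time, between 4842 and 5868 genes were called in all against 5978, with 8 to 9 of the 10 chemokines, 8 to 10 other ligands, 8 to 9 receptors and 4 to 6 cytokines. The fold of summed macrophage markers was between 6.65 (without Letmd1 KO mouse 2) and 9.05 (without Letmd1 KO mouse 3), and 10.8 with library size alone, alternatives chosen after seeing the data. Library size alone called 7267 genes (5899 higher, 1368 lower), quantile normalization with limma 5791 and DESeq2 5851. Under quantile normalization Cxcr6 (adjusted p = 0.191) and Il12b (adjusted p = 0.0668) were not called, and Ppbp, Ccl25, Ccl27b, Cxcr5, Ccr9 and Ccr10 were called as lower. Ccl12 was called with library size alone (adjusted p = 0.0279) and by DESeq2 (adjusted p = 0.0465), and Ackr1 and Ccl27a with library size alone.

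With the replicate number as a block, 5599 genes were called in all, and 8 chemokines, 10 other ligands, 9 receptors and 4 cytokines. The numbers did not pair the mice: the correlation of deviations of same-numbered mice was 0.069, -0.11 and -0.087. Depth limits Ccl3, Ccl4, Cxcl1, Ccl2 and Ccl7, whose WT mice had at most 3 counts each.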
